A study of Mus musculus with 6 samples.

Results

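Antibody genes, the J chain gene and plasma cell genes were followed in early blood progenitors of mouse bone marrow that had been sorted by a GFP reporter of Hes1. The set holds 10 genes, namely Jchain, Igk, Ighm, Xbp1, Prdm1, Irf4, Sdc1, Tnfrsf17, Mzb1 and Edem1. A gene belonged to it when the platform annotation gave its symbol, and no other, to at least 1 probe set. This took in 31 of the 45101 probe sets and 10 of the 18194 genes measured. The members had been chosen on these arrays' own values, both those for GFP-positive against GFP-negative cells and those of GFP-positive replicates 1 and 2 beside replicate 3. The values of its members are therefore given as a description, with no test.

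The GFP-positive and the GFP-negative group had 3 arrays each. All cells were lineage-negative, cKit-positive and Sca1-positive (LSK) bone marrow cells of mice aged 6 weeks. All mice carried a Hes1 GFP allele beside a wild-type allele (Hes1 GFP/WT), GFP-negative cells included. Both arrays numbered 1 came from females, and all others came from males. The labels do not say whether each array came from a separate mouse, so spread between arrays may be technical. GFP-positive replicate 1 stood apart from the other arrays in endothelial and stromal genes, and its values are printed singly throughout. Values are log2 of the deposited intensities, and differences are GFP-positive minus GFP-negative.

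A plasma cell is the antibody-secreting end stage of the B lineage. It joins immunoglobulin heavy chains to kappa or lambda light chains, and J chain links the resulting units in secreted IgM and IgA. Irf4 and Prdm1 (Blimp-1) are transcription factors that set up this stage, and Xbp1 then enlarges the secretory apparatus. The lineage-negative gate that defines LSK cells is meant to leave out mature blood cells, including cells of the B lineage that carry the usual surface markers.

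Promoter letters are shown for Jchain, which split the GFP-positive arrays, and for the gene whose main probe set separated the sorted groups with tight replicates, Edem1. Both runs are promoter windows of 250 bases in RefSeq's GRCm38.p6, 5′ to 3′ along the gene's own strand. The Jchain window adjoins the start of the gene's RefSeq span. The Edem1 window instead lies inside that gene's span, which begins at chr6:108824045. In Jchain (chr5:88527898-88528147, minus strand) the capitals mark E-boxes (CANNTG), the motif of E proteins. In Edem1 (chr6:108828391-108828640, plus strand) they mark CCAAT and CCACG on either strand, the pieces of the element used by the unfolded protein response.
Jchain: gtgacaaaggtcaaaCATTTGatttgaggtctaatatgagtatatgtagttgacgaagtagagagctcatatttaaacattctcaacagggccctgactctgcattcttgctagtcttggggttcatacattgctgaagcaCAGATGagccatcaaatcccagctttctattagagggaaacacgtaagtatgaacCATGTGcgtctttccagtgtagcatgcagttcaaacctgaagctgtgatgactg
Edem1: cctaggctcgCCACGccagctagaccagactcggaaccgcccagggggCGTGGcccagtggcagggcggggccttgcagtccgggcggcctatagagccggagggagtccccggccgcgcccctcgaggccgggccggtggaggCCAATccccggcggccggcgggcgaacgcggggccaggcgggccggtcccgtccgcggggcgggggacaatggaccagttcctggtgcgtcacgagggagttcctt
The Jchain window held 3 E-boxes, which 66.2% of 32851 promoter windows of this length also contain at least once. The Edem1 window held 1 CCAAT and 2 CCACG, present in 33.8% and 28.3% of all windows. These pieces stood apart: CCAAT began 106 bases before the window's end, and CCACG 240 and 202 bases before it. An element joining both pieces was not searched for. GC content was 42.0% in the Jchain window and 76.0% in the Edem1 window, against a median of 52.4% over all windows. Windows were found for 7 members. In none of the 7 did the octamer ATGCAAAT of immunoglobulin promoters or the element TGACGTGG occur on either strand, and these stand in 1.6% and 0.563% of all windows.

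Jchain split the GFP-positive arrays. It read 9.97, 9.95 and 3.50 on GFP-positive arrays 1, 2 and 3, against 3.72, 3.58 and 3.86 in GFP-negative replicates 1, 2 and 3. Replicates 1 and 2 of the GFP-positive group stood alone at a high level, and replicate 3 lay below all GFP-negative arrays, so the groups overlapped. Averaged over the group, Jchain was at 7.81 ± 3.73 in GFP-positive and 3.72 ± 0.14 in GFP-negative cells (SD, n = 3 each), a difference of 4.08 ± 1.76 (SE). The group mean thus describes no single array.

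A guide to background came from genes of the other sex. Xist lay between 5.06 and 5.59 in male arrays, and 3 Y-linked genes lay between 3.42 and 4.69 in female arrays. Jchain in GFP-positive replicate 3 and in all GFP-negative arrays lay within the range of the Y-linked genes in females.

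The kappa light chain locus Igk showed the same split. Its brightest probe set read 13.27, 12.69 and 5.15 on GFP-positive arrays 1, 2 and 3, against 5.00, 4.37 and 4.63 in the GFP-negative ones. Replicates 1 and 2 were far above the rest. Replicate 3 was 0.49 above the GFP-negative mean and just above the highest GFP-negative array, so that the groups did not overlap. At 5.15 it lay within the Xist range of male arrays (5.06 to 5.59), so its separation from the GFP-negative arrays stands at background level. Over the group Igk was at 10.37 ± 4.53 in GFP-positive and 4.66 ± 0.32 in GFP-negative cells (SD, n = 3 each), a difference of 5.71 ± 2.14 (SE). The other 3 probe sets annotated Igk lay between 2.82 and 5.93 on all arrays, and none of them ranged over more than 0.67.

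Ighm, the constant region of the IgM heavy chain, was present in both groups. Its brightest probe set read 12.35, 12.21 and 9.80 on GFP-positive arrays 1, 2 and 3, against 10.20, 10.14 and 9.37 in the GFP-negative ones. GFP-positive replicates 1 and 2 again lay above the other 4 arrays, here by at least 2.01, while replicate 3 lay inside the GFP-negative range. A second bright Ighm probe set was at 11.14, 10.51 and 8.63 in the GFP-positive arrays, against 9.82, 9.74 and 9.37 in the GFP-negative arrays, and its lowest value was GFP-positive replicate 3. The group differences of the 2 probe sets were 1.55 ± 0.74 and 0.45 ± 0.65 (SE, n = 3 per group). The other 9 of the 11 Ighm probe sets lay between 3.86 and 6.03 and ranged over less than 1 each.

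**Figure D1:**
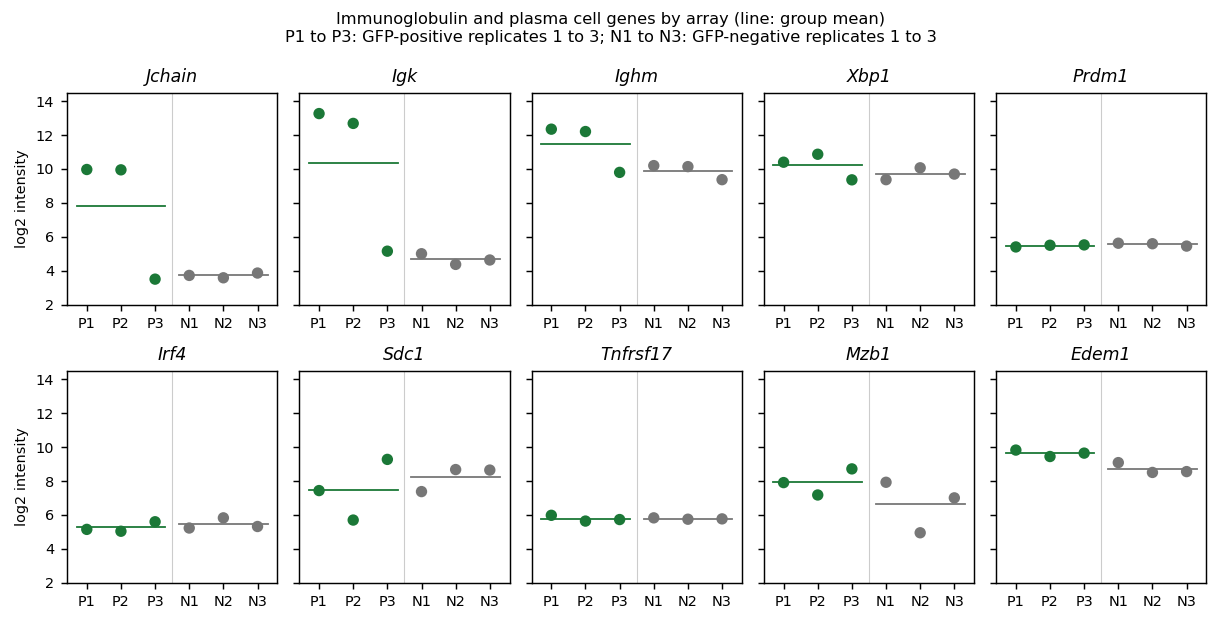
Log2 intensity of each of the 10 genes (1 probe set a gene, that with the highest mean) on each array, with GFP-positive replicates (P1 to P3, green) left of GFP-negative replicates (N1 to N3, grey) and a line at each group mean. Jchain and Igk are high in P1 and P2 only, at 9.95 to 13.27, while Prdm1, Irf4 and Tnfrsf17 stay between 5.04 and 5.98 on every array.

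Such a gap was rare on these arrays. In 3 of 18194 genes (0.0165%), the lower of GFP-positive replicates 1 and 2 was at least 3 above the highest of the other 4 arrays. These were Igk, Jchain and Igkv8-30, a kappa variable segment. Igkv8-30, which is no member, was at 11.02, 10.66 and 5.49 in GFP-positive cells, against 5.17, 5.09 and 5.59 in GFP-negative cells. Since the members were chosen with this split known, the 2 members among the 3 genes are no evidence for it. Over single probe sets 8 of 45037 (0.0178%) had such a gap. Of these 6 belonged to Jchain or the kappa locus. The other 2 belonged to T cell genes, Themis at 7.84, 8.25 and 4.69 and the receptor segment Trav9d-3 at 7.78, 8.04 and 4.33 in GFP-positive replicates 1, 2 and 3. These T cell genes were named after their values had been seen.

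Other immunoglobulin probe sets were mostly level. Of 25 kappa probe sets outside the set, 4 had a gap of at least 3 between GFP-positive replicates 1 and 2 and all other arrays, and 19 ranged over less than 1. The variable segment Igkv14-111 was at 8.02, 7.48 and 4.29 in GFP-positive arrays, against 4.25, 5.21 and 4.56 in GFP-negative arrays. None of 12 heavy chain and 4 lambda probe sets outside the set had such a gap. A lambda probe set annotated to both Iglc1 and Iglv1 was high in GFP-positive replicate 2 alone, reading 5.76, 7.72 and 5.47 on GFP-positive arrays 1, 2 and 3, against 5.46, 4.96 and 5.04 in the GFP-negative ones. Igha, the constant region of IgA, was at 9.26, 8.76 and 9.41 in GFP-positive arrays, against 8.80, 8.91 and 8.90 in GFP-negative arrays, and Ighg3 lay between 5.29 and 5.66 on all 6. The variable segments used differ from clone to clone, and each probe set reads only some of them.

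**Figure D2:**
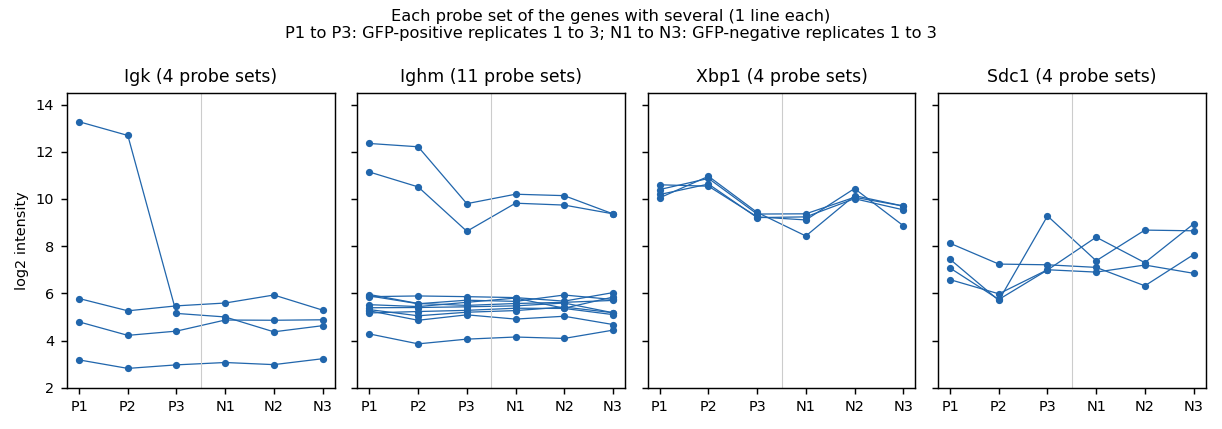
Log2 intensity of every probe set of the 4 genes shown (a line joins the values of 1 probe set), by array, GFP-positive replicates P1 to P3 left of GFP-negative replicates N1 to N3. Of 4 Igk and 11 Ighm probe sets, 1 and 2 are bright, the 4 Xbp1 probe sets run together between 8.43 and 10.96, and the 4 Sdc1 probe sets differ in sign.

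The transcription factors of the plasma cell stage gave a different picture. Prdm1, the repressor that ends the B cell programme, was at 5.40, 5.50 and 5.52 in GFP-positive arrays, against 5.62, 5.59 and 5.45 in GFP-negative arrays. The brighter probe set of Irf4, which acts upstream of Prdm1, was at 5.15, 5.04 and 5.60, against 5.23, 5.83 and 5.32. The values of both genes overlapped between the groups and lay near the Xist signal of male arrays, which reached 5.59. Jchain and Igk were high on 2 arrays on which the Prdm1 and Irf4 probe sets read no higher than elsewhere. At this level little can be read from the course of Prdm1 and Irf4, so their absence from those arrays is not shown.

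Xbp1, the factor that expands the endoplasmic reticulum, sided with the antibody genes in GFP-positive replicates 1 and 2. Its main probe set read 10.40, 10.87 and 9.36 on GFP-positive arrays 1, 2 and 3, against 9.37, 10.07 and 9.70 in GFP-negative replicates. GFP-positive replicates 1 and 2 were the highest arrays, 0.32 or more above the others. Replicate 3 was the lowest, just below GFP-negative replicate 1. It was also the lowest on the probe set where it read 9.21. On those where it read 9.24 and 9.43, the lowest arrays were GFP-negative ones, at 8.87 and 8.43. All 4 Xbp1 probe sets had a positive group difference, between 0.42 and 0.72, with overlapping groups. In 1 of the 4, GFP-negative replicate 2 at 10.14 exceeded GFP-positive replicate 1 at 10.05.

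The genes of plasma cell surface proteins in the set did not show the split of the antibody genes. Tnfrsf17 (BCMA), a receptor that sustains plasma cells, was at 5.98, 5.64 and 5.73 in GFP-positive arrays, against 5.83, 5.75 and 5.77 in GFP-negative arrays. These values lay near the Xist signal of male arrays, which reached 5.59, so little can be read from their level course. Sdc1 (CD138), a heparan sulfate proteoglycan used to sort plasma cells, read 7.44, 5.70 and 9.28 on GFP-positive arrays 1, 2 and 3, against 7.38, 8.68 and 8.65. In this main probe set the highest value stood in GFP-positive replicate 3 and the lowest in replicate 2, the reverse of Jchain in these 2 arrays. The other Sdc1 probe sets did not share this peak. They were highest in GFP-positive replicate 1 (8.12), GFP-negative replicate 3 (8.94) and GFP-negative replicate 2 (7.20). The 4 Sdc1 probe sets disagreed, with group differences from -1.61 to 0.50, and in the probe set at -1.61 all GFP-positive arrays lay below all GFP-negative ones.

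The endoplasmic reticulum proteins of the set went separate ways. Mzb1, a chaperone-associated protein that helps IgM assembly, was at 7.91, 7.18 and 8.72 in GFP-positive arrays, against 7.93, 4.95 and 7.01 in GFP-negative arrays. GFP-positive replicate 3, where Jchain lay within the background range, had the highest Mzb1. The groups overlapped, and the group means were 7.94 ± 0.77 and 6.63 ± 1.52 (SD, n = 3 each).

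Edem1 directs misfolded glycoproteins to degradation and, unlike Jchain, did not split the GFP-positive arrays. It read 9.83, 9.45 and 9.65 on GFP-positive arrays 1, 2 and 3, against 9.09, 8.51 and 8.56 in GFP-negative ones. All GFP-positive arrays lay above all GFP-negative arrays, and replicate 3 did not stand apart. The difference was 0.92 ± 0.22 (SE, n = 3 per group). Its second probe set lay at 8.42, 8.03 and 7.48, against 8.04, 7.26 and 7.05, with overlapping groups and a difference of 0.53 ± 0.36.

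Over the 10 genes, 6 had a positive difference (Jchain, Igk, Ighm, Xbp1, Mzb1 and Edem1). The median difference over the 10 was 0.71, beside 0.01 over all 18194 genes. In 2 of the 10, Igk and Edem1, all GFP-positive arrays lay above all GFP-negative arrays, where 5.89% of all genes did so. For Igk this rests on a background-level reading in GFP-positive replicate 3. In 0 of the 10 all lay below, against 5.51% of all genes. Over the whole table limma called 0% of genes in each direction after Benjamini-Hochberg adjustment (threshold 0.05, smallest adjusted p 0.0956). Before adjustment 3.33% of genes passed 0.05 as higher and 3.38% as lower. Without GFP-positive replicate 1, 2 members lay above and 1 below, beside 10.4% and 13.2% of all genes. Without GFP-positive replicate 2, 2 lay above and 0 below, beside 14.2% and 9.43%. Without GFP-positive replicate 3, 5 members lay above all GFP-negative arrays (Jchain, Igk, Ighm, Xbp1 and Edem1), beside 10.7% of all genes. Irf4 then lay below, beside 9.79% of all genes. The rule used this contrast, so nothing further is read from these counts.

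Within the female arrays Jchain, Igk and Ighm differed by 6.25, 8.27 and 2.15, and within the male arrays the means differed by 3.00, 4.42 and 1.25. The male GFP-positive arrays are the pair of replicates 2 and 3, which differ widely on these genes. Since RNA was measured in bulk, fewer cells of a type and less RNA per cell cannot be told apart.

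Early B lineage genes shared no single order over the same arrays. The list held 7 measured genes, of the pre-B receptor and of antigen receptor rearrangement, with the cytokine receptor Il7r. Of these, 4 (Il7r included) had all GFP-positive arrays above all GFP-negative arrays and 1 had them all below. The list median was 1.51, beside 0.01 over all genes. In limma's fit of all genes 0 of the 7 passed, and the unadjusted p was under 0.05 for 2 higher genes and 1 lower gene. Igll1, a surrogate light chain, read 6.31, 10.10 and 10.67 on GFP-positive arrays 1, 2 and 3, against 5.34, 5.28 and 5.51 in GFP-negative cells. Replicate 3, where Jchain and Igk were low, was thus the highest for Igll1, and replicate 1 was the lowest of the GFP-positive arrays.

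Rag1, a subunit of the recombinase of antigen receptor genes, had 8.59, 7.59 and 9.07, against 5.60, 5.10 and 5.31. In 4 of the 7 genes (Igll1, Rag1, Vpreb1 and Vpreb3) the highest array was GFP-positive replicate 3. Il7r, the interleukin-7 receptor, was instead highest in GFP-positive replicate 1, with 10.03, 9.78 and 9.11, against 8.91, 9.05 and 5.63, and was named after these values were known. With GFP-positive replicate 3 left out, these 7 genes had a median difference of 0.85. The lowest differences were those of Rag2 at -0.57 ± 0.79 and Dntt at -0.48 ± 0.16 (SE). Dntt, which adds bases at antigen receptor joints, was at 12.00, 12.16 and 12.28, against 12.50, 12.66 and 12.71, so that all GFP-positive arrays lay below.

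B cell identity genes had a median difference of 0.30 over 21 genes, 14 positive and 7 negative. The median was 0.08 without GFP-positive replicate 2, 0.10 without GFP-positive replicate 3 and 0.17 without GFP-negative replicate 2. In limma's fit of all genes 0 of the 21 passed, and the unadjusted p was under 0.05 for 2, both higher. Cd79a, the signalling chain of the B cell receptor, was at 7.99, 7.67 and 9.98 in GFP-positive arrays, against 5.79, 5.87 and 5.81 in GFP-negative arrays. Ebf1, of B lineage commitment, was at 7.44, 6.96 and 7.86, against 5.23, 4.94 and 5.34. Both were above in every GFP-positive array, replicate 3 included. Pax5, which holds B cell identity and is switched off in plasma cells, was at 7.93, 6.34 and 6.65, against 6.19, 6.16 and 6.30, and its other probe set had a difference of 0.05. Ms4a1 (CD20), of mature B cells, lay between 3.33 and 3.57 on all arrays with its main probe set, and its other probe set had a difference of 1.03. The lowest differences were those of Bcl6 at -0.68 ± 0.43 and Cd72 at -0.34 ± 0.41 (SE).

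**Figure D3:**
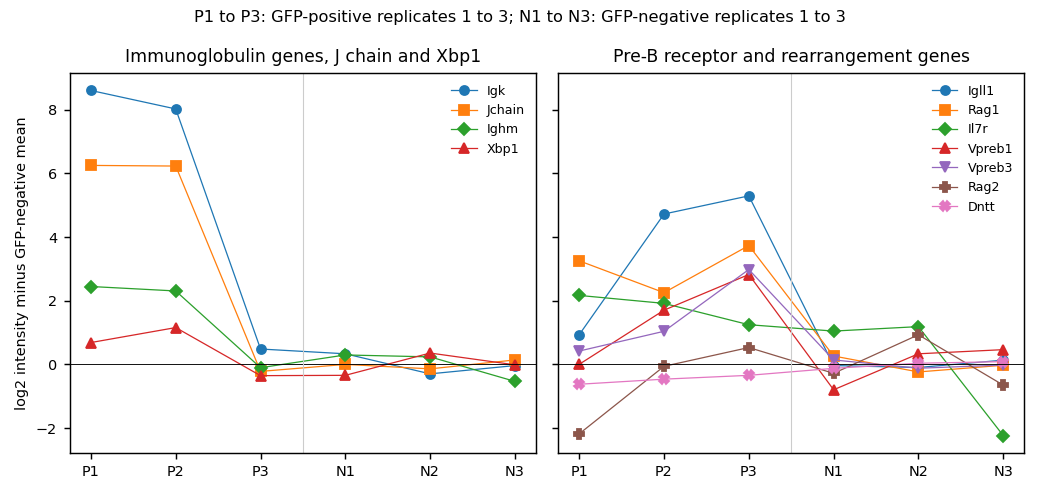
Log2 intensity minus the gene's GFP-negative mean on each array, GFP-positive replicates P1 to P3 left of GFP-negative replicates N1 to N3. The left panel holds antibody genes with J chain and Xbp1. The right panel holds all 7 measured genes of the pre-B list (pre-B receptor, rearrangement and Il7r). A line joins the values of 1 gene. In the left panel P3 lies between -0.36 and 0.49, while in the right panel P3 is the highest array for 4 of 7 genes, P1 for Il7r and a GFP-negative array for Rag2 and Dntt.

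Other plasma cell genes had a median of -0.09 over 18 genes, with 7 positive. By limma 0 passed over all genes, and 1 was higher at an unadjusted p under 0.05. Pou2af1, a coactivator of immunoglobulin transcription, was at 7.32, 7.29 and 9.66 in GFP-positive arrays, against 3.45, 3.13 and 3.22 in GFP-negative arrays. It was high in all 3 GFP-positive arrays and highest in replicate 3, unlike Jchain and Igk. Ell2, an elongation factor used in making secreted heavy chain, was at 8.23, 8.44 and 7.85, against 8.18, 6.88 and 6.94. The lowest differences were those of the costimulator Cd28 at -1.40 ± 1.23 and of the interleukin-6 receptor Il6ra at -0.67 ± 0.33 (SE). The second Il6ra probe set was at 0.06.

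The secretory apparatus did not move as a block. Over 35 genes of the endoplasmic reticulum and the unfolded protein response the median difference was 0.10, 22 positive and 13 negative. By limma 0 passed over all genes, and 1 was lower at an unadjusted p under 0.05. Its median in GFP-positive replicates 1, 2 and 3, relative to the GFP-negative mean, was 0.00, 0.12 and 0.09. Hspa5 (BiP), the chief chaperone there, was at 12.39, 12.45 and 11.56, against 12.33, 12.22 and 11.49. It was low in the replicate 3 array of both groups. The highest differences were those of the chaperone Hyou1 at 0.73 ± 0.36, whose 3 probe sets ran from -0.29 to 0.87, and Creld2 at 0.62 ± 0.53 (SE). The lowest were Txndc5, a disulfide isomerase, at -1.75 ± 0.41 and the stress sensor Atf6 at -1.13 ± 0.47, and in both all GFP-positive arrays lay below. The second Txndc5 probe set was at 0.28.

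Markers of the gate and of other marrow cells were read on the same arrays. Kit, part of the gate, was at 9.69, 10.30 and 10.51 in GFP-positive arrays, against 10.72, 10.58 and 10.47 in GFP-negative arrays. Cd34 lay between 11.48 and 11.86, against 12.28 to 12.43. Flt3, a receptor of multipotent progenitors, lay between 10.51 and 11.99, against 12.04 to 12.13, and Slamf1 (CD150) overlapped at 1.41 ± 1.12 (SE). Ly6a (Sca1) was not analysed here. Macrophage genes had a median difference of 1.81 over 14 genes, 11 positive. In limma's fit of all genes 0 passed, and the unadjusted p was under 0.05 for 8 higher genes and 1 lower gene. Their summed log2 level was 104.7 to 116.9 in GFP-positive arrays, against 88.6 to 95.0 in GFP-negative arrays. Relative to the GFP-negative mean the GFP-positive arrays had medians of 1.29, 1.79 and 1.09 for replicates 1, 2 and 3, so replicate 3 lay high as well. The highest were C1qb at 10.78, 11.78 and 8.67, against 8.73, 4.66 and 4.70, and Cd5l at 9.19, 9.45 and 8.87, against 5.54, 6.86 and 5.79. The lowest were Csf1r at -2.20 ± 0.40 and Spic at -1.14 ± 0.86 (SE). Other probe sets lay higher, up to -0.22 for Csf1r and up to 0.76, with the sign reversed, for Spic.

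Endothelial and stromal genes had a median of 0.76 over 12 genes, and all 12 were highest in GFP-positive replicate 1, without which the median was 0.06. It was 1.26 without GFP-positive replicate 2 and 1.21 without GFP-positive replicate 3. Their summed log2 level was 113.9, 84.9 and 79.8 in GFP-positive replicates 1, 2 and 3, against 80.0 to 80.2 in GFP-negative cells. Cxcl12, a stromal chemokine that also draws plasma cells, was at 12.52, 9.27 and 8.33, against 5.34, 5.52 and 5.38, while Cdh5 was at 9.83, 4.91 and 4.65, against 4.50, 5.01 and 4.29. The 3 Cxcl12 probe sets had differences from 0.00 to 4.63. The lowest differences were those of Pecam1 at -0.56 ± 0.82 and Lepr at 0.00 ± 0.14 (SE). By limma 0 of the 12 passed over all genes, and 1 was higher at an unadjusted p under 0.05. The part of macrophage and stromal RNA in the antibody gene values was not tested.

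**Figure D4:**
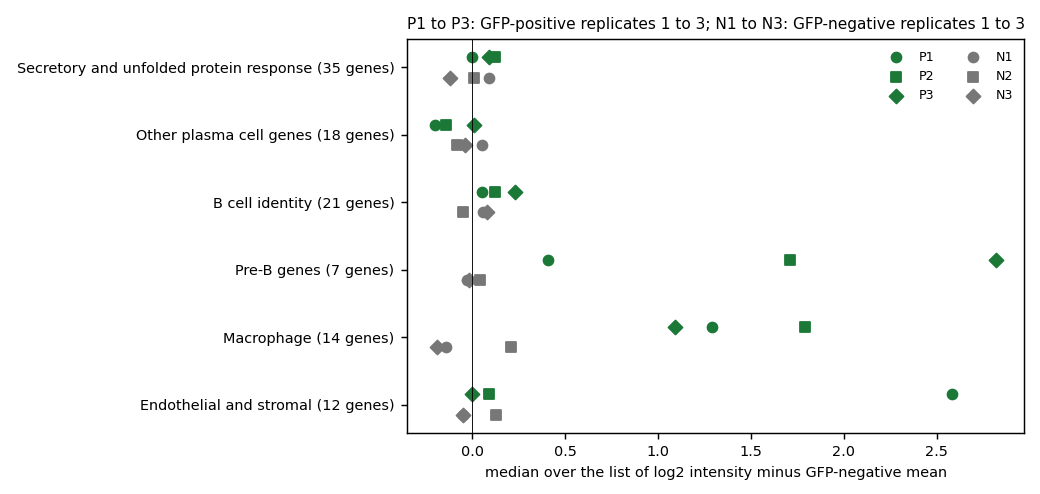
Median over each gene list of log2 intensity minus the gene's GFP-negative mean, for each array (green, GFP-positive P1 to P3, above grey, GFP-negative N1 to N3). Pre-B genes stand at 0.41 in P1, 1.71 in P2 and 2.82 in P3, endothelial and stromal genes stand at 2.58 in P1 alone, and secretory genes stay within 0.12 of 0.

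The genes most like Jchain over the 6 arrays were looked for among 2798 genes that are no members and ranged over at least 2. The correlations are a description over 6 arrays and rest on the pair of GFP-positive arrays that stood apart. The closest was Igkv8-30 (Pearson r = 0.997). It was followed by Plcl2, a phospholipase C-like protein (0.989), and Man2a1, a Golgi mannosidase that trims N-glycans (0.98). Plcl2 read 10.16, 10.53 and 8.26 on GFP-positive arrays 1, 2 and 3, against 8.45, 8.48 and 8.62. Man2a1 was at 8.71, 8.57 and 6.97, against 7.27, 6.71 and 7.11. Further down came Igkv14-111 (0.972), Paqr9 (0.97), Nfia (0.97), the claudin Cldn13 (0.969), Ms4a4d (0.967), the adhesion molecule Vcam1 (0.967) and the transaminase Gpt2 (0.961). Vcam1, also on the macrophage list, was at 9.50, 9.24 and 7.38, against 6.46, 6.66 and 6.83. For Ighm the 5 closest were Ecm1 (0.991), the nuclear lamin Lmna (0.983), the centriole protein Stil (0.978), Igkv14-111 (0.959) and Igkv8-30 (0.956). Among the members, Igk and Ighm had r = 1.00 and 0.97 with Jchain over the arrays. Xbp1 had 0.86, Edem1 0.62, Tnfrsf17 0.18, Mzb1 0.15, Prdm1 -0.60, Irf4 -0.72 and Sdc1 -0.78. Prdm1, Irf4 and Tnfrsf17 stayed between 5.04 and 5.98 on every array, so little can be read from their correlations. The Sdc1 value is that of its main probe set, and its 4 probe sets disagreed.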

How the data were processed

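Per the labels' protocols, total RNA was column-extracted, 5 ng amplified and the cDNA biotin-labelled. The authors deposited linear intensities for 45101 probe sets on 6 arrays. RMA is named in the submitters' processing notes, without version or settings. It shrinks differences near background, and its quantile step removes shifts shared by most genes. Array medians lay between 74.0 and 78.5 and the minimum was 4.12, so log2 was taken with no pseudocount.

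Of the probe sets 34958 carried 1 symbol in the platform annotation, 932 several and 9211 none, and only the first were named. The probe set of highest mean stood for a gene, which left 18194 genes. All 10 members matched RefSeq symbols. Groups were compared with limma 3.58.1 (lmFit, eBayes, R 4.3.3) without covariates, Benjamini-Hochberg adjusted over all genes at a threshold of 0.05, and the SE of a second probe set comes from the same fit over 45037 probe sets without the 64 controls. The fit was tested on simulated data. Motifs were searched with Python 3.11.15 and plots drawn with matplotlib 3.10.9.

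Members and lists were chosen with earlier results of these data known. Named genes were all members, the 2 highest and 2 lowest of each list, some fixed markers, and the genes closest to Jchain (10) and Ighm (5). Lists whose genes are not all described showed 3 of 6 positive differences (other lineages) and 3 of 4 (Igha, Ighg3, Iglv1 and Pigr). Of the other lineages, the highest were Epor at 0.92 ± 0.32, with all GFP-positive arrays above, and Cd5 at 0.26 ± 0.57 (SE). The lowest were Itgam at -0.73 ± 0.56 and Cd4 at -0.65 ± 0.38 (SE), with the other Cd4 probe set at 0.32. Alternatives were the mean of probe sets, single probe sets, a filter at the 40th percentile, renewed quantile normalisation, an intensity trend, the replicate number as a block, sex, and the omission of each array. The number of arrays limits the precision.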

Additional observations from a re-analysis of the deposited data

Results flagged for a closer look

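Some kappa probe sets carry several gene symbols and so stand outside the gene values above. Of these, 3 probe sets, each annotated to the same 5 kappa genes (variable segments, Igkj1 and Igkc), showed a signal in GFP-positive replicates 1 and 2 above every GFP-negative array. The lower of the pair exceeded the highest GFP-negative array by 8.37, 9.15 and 9.34 on the log2 scale. The brightest read 13.52, 13.39 and 4.27 on GFP-positive arrays 1, 2 and 3, against 5.02, 4.49 and 4.49 in GFP-negative replicates. No single gene can be named from them.

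Tnfrsf17 and Mzb1 differed in sign between the sexes, and that difference was not tested. Tnfrsf17 was 0.15 higher in the GFP-positive female array than in the GFP-negative one, while both male GFP-positive arrays lay below both male GFP-negative arrays. For Mzb1 the female difference was -0.02, while both male GFP-positive arrays lay above. The female contrast has 1 array a group, and both female differences are smaller than the SD of the GFP-positive arrays, 0.18 for Tnfrsf17 and 0.77 for Mzb1.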

How the results depend on the processing

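Under the 13 alternatives the number of genes past an adjusted p of 0.05 by limma stayed at 0 in each direction, with 2 exceptions: 1 gene was higher with genes below the 40th percentile left out (Ermap, named after its values were seen), and 5 without GFP-positive replicate 3. Those 5 were Jchain, Igk, Igkv8-30, Pou2af1 and Ermap. That omission leaves 2 GFP-positive arrays and removes an array that lay far from the other GFP-positive ones in Jchain, Igk, Igkv8-30 and Pou2af1, so it is no independent support. The counts at an unadjusted p under 0.05 were 606 higher and 615 lower. Single probe sets gave 1291 and 1474, with 45037 in place of 18194 features tested. Leaving out each array in turn gave 467 to 684 higher and 505 to 684 lower, 0 to 5 higher at the adjusted threshold, 2 to 5 members above all GFP-negative arrays (5 without GFP-positive replicate 3) and 0 to 1 below. The 1 below appeared without GFP-positive replicate 1, GFP-positive replicate 3 or GFP-negative replicate 3.

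When the probe sets of a gene were averaged, 0 members had all GFP-positive arrays above, and the difference was 1.28 for Igk and 0.16 for Ighm, since dim probe sets entered the mean. The filter at the 40th percentile kept 6 members (Igk, Ighm, Xbp1, Sdc1, Mzb1 and Edem1) and left out Jchain. The Jchain difference was 3.00 without GFP-positive replicate 1, 3.01 without replicate 2 and 6.24 without replicate 3, and that of Igk 4.26 to 8.32 over the omissions. The difference ranged from 1.10 to 2.38 for Ighm, 0.16 to 0.92 for Xbp1, 0.47 to 1.96 for Mzb1 and -1.67 to 0.12 for Sdc1. The lowest values of Xbp1 and Mzb1 came without GFP-positive replicate 2 and GFP-negative replicate 2, and the highest of Ighm and Xbp1 without GFP-positive replicate 3. Edem1 lay between 0.82 and 1.11 over the omissions. The secretory list's median was -0.00 to 0.12 and that of the other plasma cell genes -0.18 to -0.04. With the 40th percentile filter the B cell identity median was 0.14.

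With the replicate number as a block (replicate block) the counts at an unadjusted p under 0.05 were 665 higher and 725 lower, and 0 passed after adjustment. Same-numbered arrays deviated from their group means with correlations of 0.124, 0.05 and 0.092, each the highest for its number but not all above 0.1. The numbers are therefore not taken as pairs.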
